A study of Mus musculus with 8 samples.

Results

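The Hox genes encode homeodomain transcription factors that give cells their position along the body axis. In the mouse they lie in 4 clusters, HoxA to HoxD, on chromosomes 6, 11, 15 and 2. Meis and Pbx proteins belong to the TALE class of homeodomain factors; they bind DNA together with Hox proteins and change which sites those proteins choose. Retinoic acid (RA) acts through nuclear receptors, and Hox genes at the 3′ ends of the clusters and Meis genes are textbook targets of it in embryos and embryonal carcinoma cells.

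These genes were followed in a transfected derivative of AML12 cells that carries v-erbA, and in AML12 cells themselves, a mouse hepatocyte line established from mice transgenic for TGF-alpha. The v-erbA protein, an avian retroviral oncogene product, is an altered form of the thyroid hormone receptor alpha. The 8 arrays covered v-erbA-transfected AML12 cells with RA at 24 h, untreated at 24 h, with RA at 3 h and untreated at 3 h, and AML12 cells in the same 4 states, with 1 array each and RA at 1 µM. No combination was replicated. The p-values test differences against the departure of these arrays from the fitted model, which was additive or held 1 interaction term. They do not use a spread between replicates. Nothing in the labels used here gives the v-erbA construct, the number of clones or what the control cells received, so v-erbA and the history of the transfected line cannot be told apart.

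The members were the probe sets that the platform annotation names as Hox followed by a, b, c or d and a number, or as Meis or Pbx followed by a number. A probe set is a group of short oligonucleotides that reads a transcript, and some sets can read several. The rule found 39 genes among 18192 named on the array, read by 63 of its 45036 probe sets, of which 48 were of Hox, 8 of Meis and 7 of Pbx genes. They covered 33 Hox genes, 3 Meis genes and 3 Pbx genes. Another 8 probe sets carried antisense names (5) or the names of several genes (3) and were left out.

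Most members were dim. The pooled median of all values on the 8 arrays was 73.5 units, and it serves here as the level above which a signal was described. Of the 63 probe sets 16 exceeded it on all 8 arrays, 7 on 2 to 7 arrays, 4 on 1 array and 36 on none. The 23 probe sets with at least 2 arrays above it were tested; they were 36.5% of the members, against 55.4% of all probe sets. The low share lay with Hox genes, of which 11 of 48 probe sets (22.9%) entered the tests, against 12 of 15 (80.0%) of Meis and Pbx. No detection calls were used, so a dim signal gives no absence of a transcript. Signals of different probe sets were set against a common level and, for the markers below, summed. They do not rank genes by amount of transcript.

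The cluster map shows where the brighter probe sets lay. In HoxA they were those of Hoxa3, Hoxa5 and Hoxa7, in HoxB those of Hoxb2, Hoxb3, Hoxb7 and Hoxb13, and in HoxC those of Hoxc6. None of the 10 HoxD probe sets among the members exceeded the level on any array. A left-out set annotated to both Hoxd3 and Hoxd4 exceeded it on 1 array, at 112 units in AML12 with RA at 3 h. It gave 26.8 units in untreated AML12 at 3 h. All 3 Meis genes did, as did Pbx2 and Pbx3, while both Pbx4 probe sets did not.

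**Figure D1:**
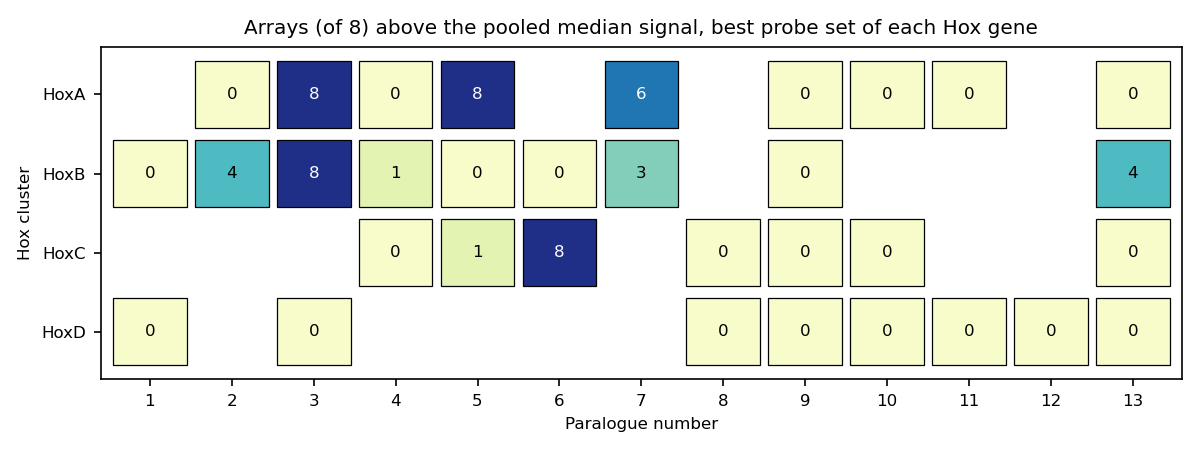
Hox genes by cluster (vertical axis) and paralogue number (horizontal axis); each box gives the number of the 8 arrays on which the gene's best probe set exceeded the pooled median of 73.5 units, and darker boxes mean more arrays. Positions without a box had no member probe set; all HoxD boxes are at 0. Probe sets annotated to several genes are not shown.

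RefSeq promoters (GRCm38.p6) were at hand for 24 of the 39 member genes, among them 7 of the 13 genes with a tested probe set. Of the genes that passed the test for v-erbA, Hoxa3, Meis1, Meis2 and Pbx2 had one, and the 250 bases before the annotated start of each are shown because a thyroid hormone receptor binds the hexamer AGGTCA, as do RA receptors. Capitals mark matches on either strand to AGGTCA, to its direct repeat spaced by 5 bases, to the Meis core TGACAG or to the Pbx and Hox composite TGATTNAT. The repeat holds the hexamer, and matches to different motifs were counted apart even where they could share bases.
Hoxa3, chr6:52213068-52213317, minus strand: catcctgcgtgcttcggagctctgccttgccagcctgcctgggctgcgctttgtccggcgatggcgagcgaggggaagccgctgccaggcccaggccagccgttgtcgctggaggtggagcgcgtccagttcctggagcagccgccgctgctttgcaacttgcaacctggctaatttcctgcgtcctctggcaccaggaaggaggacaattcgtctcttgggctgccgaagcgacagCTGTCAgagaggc
Meis1, chr11:19018970-19019219, minus strand: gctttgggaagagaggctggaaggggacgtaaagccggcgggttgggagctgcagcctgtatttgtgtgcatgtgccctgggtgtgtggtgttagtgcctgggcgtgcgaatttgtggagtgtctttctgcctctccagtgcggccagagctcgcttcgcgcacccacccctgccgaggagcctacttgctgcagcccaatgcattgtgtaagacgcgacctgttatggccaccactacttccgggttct
Meis2, chr2:116064620-116064869, minus strand: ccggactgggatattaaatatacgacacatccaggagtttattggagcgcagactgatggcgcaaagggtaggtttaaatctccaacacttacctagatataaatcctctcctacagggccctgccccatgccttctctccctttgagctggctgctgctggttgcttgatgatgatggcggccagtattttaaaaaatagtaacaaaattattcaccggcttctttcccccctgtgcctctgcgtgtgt
Pbx2, chr17:34592009-34592258, plus strand: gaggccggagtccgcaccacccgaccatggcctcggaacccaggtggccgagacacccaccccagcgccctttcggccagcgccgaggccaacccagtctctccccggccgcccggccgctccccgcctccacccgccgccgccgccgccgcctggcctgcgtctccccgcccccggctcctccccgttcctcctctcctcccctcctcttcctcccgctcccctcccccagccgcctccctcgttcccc
One match was found in these 4 windows, the Meis core in the Hoxa3 window, starting 13 bases before the start. Over 26 promoter windows of members the hexamer stood in 5 (19.2%), in Hoxb4, Hoxc4, Hoxd10, Hoxd3 and Hoxd8, against 14.0% of 32851 windows of all genes; no tested member had it. The Meis core stood in 2 member windows (7.69%), against 15.9% of all. The composite also stood in 2 (7.69%), against 2.82% of all. The direct repeat was in 0 of the 26 and in 3 of all windows. A match is a run of letters and not a bound site, and its lack says nothing of the factor.

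Hepatocyte identity and RA exposure were checked first. Of 8 hepatocyte markers 7 exceeded 73.5 units on all 8 arrays, and their summed signal was 26347 to 30691 units in the v-erbA line and 29344 to 40813 in AML12. That sum was carried by Alb and Ttr, which overlapped between the lines, and hid moves in both directions. Apoa1, Apoh, Fgg, Hnf4a and Cebpa were lower in the v-erbA line without overlap (Apoa1 199.8 to 742 units, against 1823 to 7093 in AML12), and Serpina1b was higher (3115 to 5325 units, against 779 to 1768 in AML12). The biliary markers Krt7, Krt19 and Epcam also exceeded it on all arrays, with sums of 2035 to 2941 units in the v-erbA line and 3020 to 4760 in AML12. Krt7 was higher and Krt19 lower in the v-erbA line, both without overlap. Spp1, also listed as a biliary marker, was not found among the probe sets that name 1 gene. Of 6 fibroblast markers 1 did, with sums of 374 to 542 units in the v-erbA line and 299.9 to 392 in AML12. Among them Dcn gave 126 to 149 units in the v-erbA line and 18.8 to 51.8 in AML12, and Des 72.8 to 113 units in the v-erbA line and 53.2 to 69.3 in AML12. Col1a2, the set above the level on all arrays, was lower in the v-erbA line (102 to 125 units, against 131 to 211 in AML12), as was the dim Pdgfrb. Of 4 endothelial markers 0 did, with 81.2 to 248 units in the v-erbA line and 132 to 219.6 in AML12, and all 4 overlapped between the lines. Of 4 macrophage and blood markers 1 did, Csf1r, with 236 to 405 units in the v-erbA line and 174 to 319 in AML12. Col3a1, Pdgfrb, Pecam1, Cdh5, Ptprc and Cd68 lay below the level on every array. Ptprc and Cd68 nevertheless did not overlap between the lines, with 45.4 to 55.8 and 48.6 to 60.4 units in the v-erbA line, against 14.8 to 23.4 and 14.7 to 28.3 in AML12. Between times, Col1a1 gave 0.64 to 5.78 units at 24 h and 77.3 to 119 at 3 h, without overlap. Adgre1 gave 47.7 to 57.0 units at 24 h and 83.5 to 114 at 3 h, and Csf1r 78.5 to 130 and 183 to 190. Tek went the other way, with 59.0 to 74.3 units at 24 h and 7.73 to 19.4 at 3 h, as did the dim Cdh5. The part of these marker levels in the line and time differences below was not tested. Of 5 genes listed as a check of RA exposure 3 rose with it and 2 did not pass. That list was chosen with earlier results of these data known, so it is no independent check. Nrip1, a corepressor gene with a known RA response, rose by 1.67 ± 0.11 on the log2 scale and Dhrs3, a retinaldehyde reductase gene, by 0.67 ± 0.10 (limma adjusted p = 9.55e-04 and 0.0187, higher in 4 of 4 pairs). Rdh10, a retinol dehydrogenase gene, rose by 0.42 ± 0.07 (limma adjusted p = 0.0202). Rarb, a receptor gene, gave 50.2 to 82.7 units with RA and 23.6 to 45.7 untreated (limma adjusted p = 0.0691), and Cyp26a1, which encodes an RA-degrading enzyme, differed by 0.23 ± 0.12 (limma adjusted p = 0.507). Changes in the text are differences of log2(signal + 19.9) ± SE of the limma fit, which understate the change of dim probe sets.

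The first comparison asked what distinguished the v-erbA line in its homeobox genes, in 4 matched pairs of arrays that shared treatment and time. Hoxb13, Hoxb3, one Hoxa3 probe set, Meis1 and one Meis2 probe set were higher in the v-erbA line. Pbx2, Pbx3 and a second Hoxa3 probe set were lower. The tested Hoxa5, Hoxa7, Hoxb2, Hoxb7, Hoxc6 and Meis3 probe sets did not pass. In all, 12 of the 23 tested probe sets passed with limma (adjusted p under 0.05), 7 higher and 5 lower, against 49.7% of all 24955 probe sets tested (25.4% higher and 24.3% lower). Of those calls over all probe sets 51.2% were higher in the v-erbA line as deposited and 44.7% with arrays centred on their median. That share of the members is close to the background and is no result about these genes as a group. The median change was 0.09 over the members and 0.02 over all probe sets.

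Hoxb13, the 5′ end member of the HoxB cluster, known from the hindgut and prostate, had the largest difference among the members. In the v-erbA line its signal was 231 with RA and 274 untreated at 24 h, and 249 with RA and 254 untreated at 3 h. In AML12 it was 16.4 with RA and 21.5 untreated at 24 h, and 24.9 with RA and 29.5 untreated at 3 h. The groups did not overlap, every AML12 array lay below 73.5 units, and within each line the arrays stayed close together. The difference was at least 2.91-fold, with the v-erbA mean set against the level of 73.5 units (limma adjusted p = 7.28e-08, higher in 4 of 4 pairs). Hoxb13 entered the tests through the v-erbA arrays alone, so a difference between the lines was built into its selection. More transcript per cell and more cells with the transcript cannot be told apart in these bulk samples, here and in all results below.

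Hoxb3, a gene nearer the 3′ end of the same cluster that patterns the hindbrain, had both of its probe sets higher with v-erbA. Signals of 1456229_at in the v-erbA line were 206 with RA and 232 untreated at 24 h, and 209 with RA and 173 untreated at 3 h. In AML12 they were 111 with RA and 95.5 untreated at 24 h, and 96.9 with RA and 107 untreated at 3 h. The lowest v-erbA array thus lay well above the highest AML12 array, and the change was 0.87 ± 0.09 (limma adjusted p = 4.58e-05, 4 of 4 pairs). The dimmer set 1427605_at gave 56.2 to 77.8 units in the v-erbA line and 34.2 to 51.7 in AML12, again without overlap (limma adjusted p = 0.00679). No fold is given for it, since the AML12 arrays and the v-erbA mean lay below the level, and it too was tested only through v-erbA arrays.

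Hoxa3, the HoxA paralogue of Hoxb3, had 2 tested probe sets that moved in opposite directions. With 1452421_at the v-erbA line gave 311 with RA and 332 untreated at 24 h, and 231 with RA and 219.7 untreated at 3 h. AML12 gave 216 with RA and 170.2 untreated at 24 h, and 165 with RA and 95.4 untreated at 3 h. All v-erbA arrays were above all AML12 arrays, by 0.72 ± 0.11 (limma adjusted p = 5.24e-04, 4 of 4 pairs). With 1431392_at the signals were lower in the v-erbA line, 76.8 to 94.3 units, than in AML12, 95.5 to 114 units, a change of -0.27 ± 0.09 (limma adjusted p = 0.0345, lower in 4 of 4 pairs). That call was lost when any of 6 single arrays was left out, at both times taken alone, without the time term and without the dim filter. The remaining Hoxa3 probe sets, 1427433_s_at and 1429398_at, were dim on all arrays. A direction for the Hoxa3 gene as a whole can therefore not be given.

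Meis1, a Hox cofactor gene, had all 3 of its probe sets higher on average in the v-erbA line. Of 1450992_a_at the signals in the v-erbA line were 187 with RA and 157 untreated at 24 h, and 200.3 with RA and 140.0 untreated at 3 h. AML12 signals were 64.6 with RA and 49.2 untreated at 24 h, and 73.6 with RA and 50.9 untreated at 3 h. The groups lay far apart, at a change of 1.27 ± 0.08 (limma adjusted p = 2.60e-06, 4 of 4 pairs), with 3 of the 4 AML12 arrays below the level. Of 1459423_at they were 55.2 with RA and 63.4 untreated at 24 h, and 142 with RA and 154 untreated at 3 h in the v-erbA line. They were 48.3 with RA and 38.2 untreated at 24 h, and 106 with RA and 105 untreated at 3 h in AML12. The v-erbA array was the higher one in each matched pair, by 0.37 ± 0.10 (limma adjusted p = 0.00897), although the groups overlapped across times. That call was lost without the time term and with the arrays of 24 h alone. The third set, 1443260_at, was not tested, with 48.1 to 85.6 units in the v-erbA line and 42.3 to 54.9 in AML12.

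Meis2, a second cofactor gene of the family, was above the level on all arrays with each of 4 probe sets. Only 1417129_a_at passed, with 216 to 264 units in the v-erbA line and 172 to 222 in AML12 and a change of 0.21 ± 0.06 (limma adjusted p = 0.0151). That call was lost without the untreated v-erbA array of 24 h, without the v-erbA RA array of 3 h, without the time term and at each time alone. The other sets differed by 0.12 (1440091_at), 0.07 (1457632_s_at) and -0.04 (1447861_x_at), the last against the direction of the rest. The lines overlapped with all 4 sets.

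Pbx2, which encodes a broadly expressed Hox cofactor, was lower with v-erbA with 2 of its 3 probe sets. With 1418893_at the v-erbA line gave 177 with RA and 187 untreated at 24 h, and 164 with RA and 159 untreated at 3 h. AML12 gave 256 with RA and 218 untreated at 24 h, and 201 with RA and 211 untreated at 3 h. No v-erbA array reached the lowest AML12 array, and the change was -0.33 ± 0.07 (limma adjusted p = 0.00331, lower in 4 of 4 pairs). With 1418894_s_at the ranges were 93.6 to 109.7 units in the v-erbA line and 126 to 139 in AML12, a change of -0.33 ± 0.08 (limma adjusted p = 0.00607). Both calls were lost with the arrays of 24 h alone. With 1449261_at the lines overlapped, at -0.16 ± 0.09 (limma adjusted p = 0.159).

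Pbx3, a close relative of Pbx2, was lower with both of its probe sets. The v-erbA line gave signals of 1447640_s_at of 482 with RA and 469.5 untreated at 24 h, and 708 with RA and 614 untreated at 3 h. Those of AML12 were 759.7 with RA and 611 untreated at 24 h, and 997 with RA and 952 untreated at 3 h. In each matched pair the v-erbA array was the lower one, by 0.53 ± 0.06 (limma adjusted p = 5.98e-05), while the groups overlapped across times. With 1421193_a_at the ranges were 392 to 500.5 units in the v-erbA line and 433 to 669 in AML12, with a change of -0.30 ± 0.06 (limma adjusted p = 0.00312, lower in 4 of 4 pairs). Both calls were lost without the time term, and that of 1421193_a_at with the arrays of 24 h alone.

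**Figure D2:**
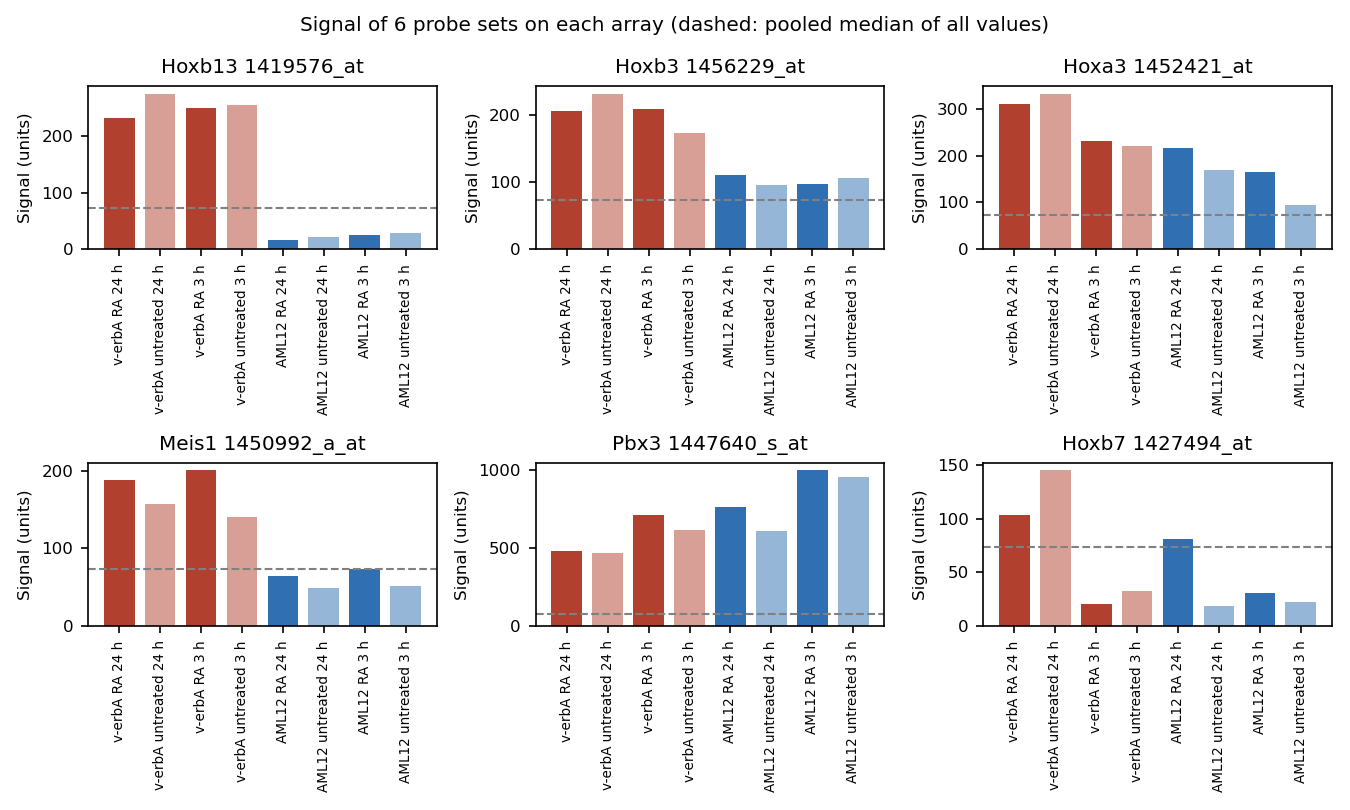
Signal in units (vertical axis, from 0) of 6 probe sets on each of the 8 arrays (horizontal axis), in red for the v-erbA line and blue for AML12, with full colour for RA and pale colour for untreated cells; the dashed line is the pooled median of 73.5 units. Hoxb13, Hoxb3, Hoxa3 and Meis1 were higher on all v-erbA arrays than on any AML12 array, Pbx3 was lower in each matched pair, and Hoxb7 was high on 3 arrays of 24 h.

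The Hox probe sets that did not pass for the line were those of Hoxa5, Hoxa7, Hoxb2, Hoxb7 and Hoxc6. Hoxa7 gave 72.1 to 99.5 units in the v-erbA line and 92.1 to 106 in AML12 (-0.24 ± 0.10, limma adjusted p = 0.0636), lower in 4 of 4 pairs. It passed with arrays centred on their median (-0.27, adjusted p = 0.0396). Hoxa5, with 1443803_x_at, gave 112 to 148 units in the v-erbA line and 129 to 168 in AML12. Its other set, 1448926_at, was dim on all arrays, at 3.92 to 39.3 units, and was not tested. Hoxc6 gave, by 1427361_at, 91.2 to 136 units in the v-erbA line and 95.6 to 118 in AML12. By 1427362_x_at it gave 110.1 to 132 units in the v-erbA line and 96.5 to 121 in AML12. The ranges of these tested sets overlapped, and the changes of Hoxa5 and Hoxc6 lay between -0.05 and 0.15. Hoxb7, with 5 of 8 arrays below the level, gets no size (limma adjusted p = 0.155). The same limma test passed without the v-erbA RA array of 3 h (adjusted p = 0.0350). It also passed with the arrays of 24 h alone (adjusted p = 0.0221), in a fit with 1 residual degree of freedom. Hoxb2 differed by 0.04 and Meis3 by 0.16.

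Over all tested members 8 probe sets had lines that did not overlap, 5 higher and 3 lower in the v-erbA line, against 35.2% of all probe sets tested (17.9% higher and 17.3% lower). They were both Hoxa3 sets, Hoxb13, both Hoxb3 sets, 1450992_a_at of Meis1 and 2 sets of Pbx2. In 15 of the 23 the line difference had 1 sign in 4 of 4 pairs, against 60.8% of all. Of the 7 genes with several tested probe sets, Hoxb3, Hoxc6, Meis1, Pbx2 and Pbx3 had the same sign with all of them and Hoxa3 and Meis2 did not. All tested sets passed in 1 direction only in Hoxb3, Meis1 and Pbx3. No line difference was shown to depend on time: 0 of the 23 passed the limma test of the difference between times, with 0.112% of all probe sets past it, and 0 had an unadjusted p under 0.05. The smallest was 0.0525, for Hoxb7.

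The second comparison asked whether the homeobox genes responded to RA. No member passed the test. Across lines and times limma gave 0 of 23 past the threshold and 4 (17.4%) at an unadjusted p under 0.05. Of all probe sets 1.15% passed and 11.6% had an unadjusted p under 0.05. The median change was 0.03 over the members and -0.01 over all probe sets. In no member did the RA arrays and the untreated arrays lie apart, against 1.63% of all probe sets tested. The RA difference had 1 sign in 4 of 4 pairs in 5 of the 23, against 20.9% of all.

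Meis1 and Pbx3 came nearest. The set 1450992_a_at of Meis1 was higher with RA in 4 of 4 pairs, by 0.34 ± 0.08 (limma unadjusted p = 0.00194, adjusted p = 0.0977). Its difference was 0.34 in the v-erbA line and 0.34 in AML12, as measured, with 3 of the 4 AML12 arrays below the level. With the arrays of 3 h alone it passed at 0.43 (limma adjusted p = 0.0467), in a fit with 1 residual degree of freedom. That fit gave 1204 RA calls over all probe sets, against 286 in the main fit. The set 1459423_at of Meis1 did not follow, with a limma adjusted p of 0.993. Pbx3 was higher with RA in 4 of 4 pairs with both sets, by 0.20 ± 0.06 and 0.15 ± 0.06 (limma adjusted p = 0.228 and 0.333). The fourth, Hoxa5, was lower in 3 of 4 pairs, by 0.19 ± 0.08 (limma adjusted p = 0.422).

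The design text asks about RA in cells that carry v-erbA. The response within each line is given first. It does not test whether the lines differ in that response, which the test of the difference between lines does. In the v-erbA line 0 members passed with limma and 1 of the 23 (4.35%) had an unadjusted p under 0.05. Of all probe sets tested 0 passed there and 860 (3.45%) had an unadjusted p under 0.05. In AML12 0 members passed and 3 of the 23 had an unadjusted p under 0.05. Of all probe sets 0.309% passed there and 10.4% had an unadjusted p under 0.05. Those 3 were 1452421_at of Hoxa3 (0.50 ± 0.11, limma adjusted p = 0.138), 1421193_a_at of Pbx3 (0.32 ± 0.08, 0.166) and 1450992_a_at of Meis1. The Hoxa3 signal in AML12 was 216 with RA and 170.2 untreated at 24 h, and 165 with RA and 95.4 untreated at 3 h, while the v-erbA arrays showed no difference of one direction.

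With limma, 0 of the 23 members and 0 probe sets in all passed the test of the difference between lines. An unadjusted p under 0.05 was found for 2 members (8.70%) and for 471 of all probe sets tested (1.89%). For 1452421_at of Hoxa3 the RA response in the v-erbA line was lower than in AML12 by 0.51 ± 0.16 (limma unadjusted p = 0.0119, adjusted p = 1.00). For Hoxb7 (limma unadjusted p = 0.0461, adjusted p = 1.00) no size is given, since a single array, AML12 with RA at 24 h, stood above the other AML12 arrays. A p that misses the threshold does not show equal responses.

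**Figure D3:**
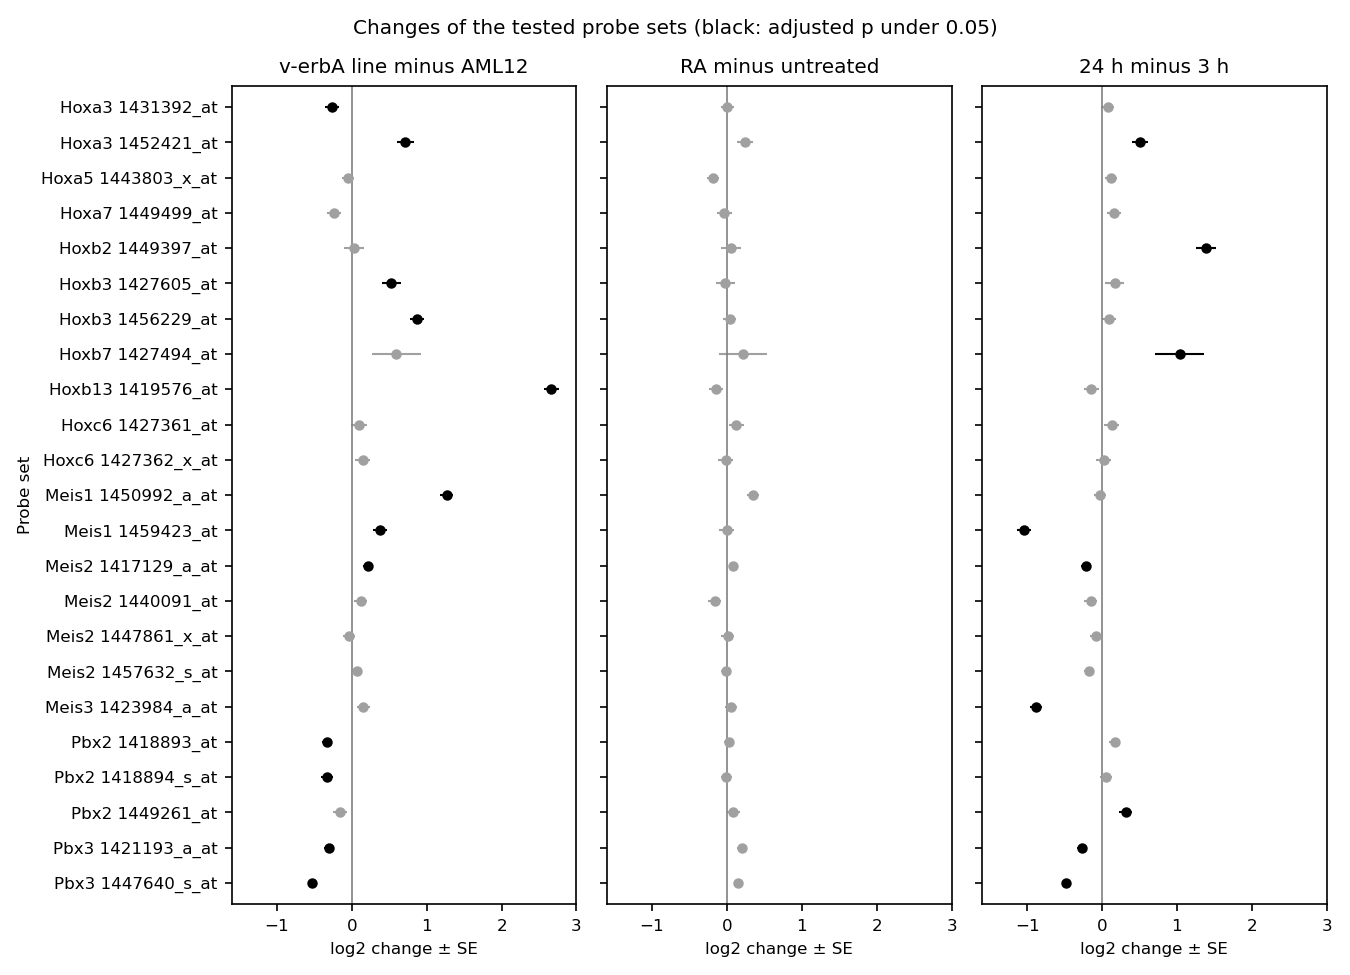
log2 changes ± SE of the limma fit (horizontal axis) of the 23 tested probe sets (vertical axis) for the v-erbA line minus AML12, RA minus untreated cells, and 24 h minus 3 h; black points passed an adjusted p under 0.05. There were 12, 0 and 9 black points. Some black points are measured differences against a group that lay wholly below the pooled median. They are Hoxb13 and 1427605_at of Hoxb3 for the line, and Hoxb2, Hoxb7 and 1459423_at of Meis1 for time. The text gives bounds for them, except for the Hoxb3 set, which gets no fold.

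The third comparison set the arrays of 24 h against those of 3 h, averaged over lines and treatments. Hoxb2, Hoxb7, a Hoxa3 set and a Pbx2 set were higher at 24 h. Meis3, Pbx3, a Meis1 set and a Meis2 set were lower. With limma 9 of the 23 tested probe sets passed, 4 higher and 5 lower, against 30.4% of all probe sets tested (16.6% higher and 13.8% lower). In 4 the times did not overlap, 1 higher and 3 lower at 24 h, against 17.9% of all (9.32% higher and 8.57% lower). The time difference had 1 sign in 4 of 4 pairs in 10 of the 23, against 45.7% of all. Time and any difference in how the arrays of the 2 times were processed cannot be told apart, and 3 of the 4 samples whose titles say 24 h are described as 3 h samples; titles were followed.

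Hoxb2, a 3′ gene of HoxB that patterns the hindbrain, separated the times in both lines. At 24 h its signal was 80.1 with RA and 97.8 untreated in the v-erbA line, and 77.7 with RA and 82.3 untreated in AML12. At 3 h it was 21.2 with RA and 17.0 untreated in the v-erbA line, and 25.7 with RA and 15.7 untreated in AML12. All arrays of 3 h lay far below the level, and the difference was at least 1.11-fold (limma adjusted p = 3.06e-05, higher in 4 of 4 pairs). Hoxb7, of the middle of the cluster, behaved less evenly. Its signal was 104 with RA and 145 untreated at 24 h, and 20.1 with RA and 32.5 untreated at 3 h in the v-erbA line. It was 81.2 with RA and 18.4 untreated at 24 h, and 30.8 with RA and 22.1 untreated at 3 h in AML12. Only 3 of the 4 arrays of 24 h were bright, and the difference was at least 1.01-fold (limma adjusted p = 0.0363, higher in 3 of 4 pairs). That call was lost when any of 5 single arrays was left out: each of the 4 v-erbA arrays, or AML12 with RA at 24 h. Hoxb2 and Hoxb7 entered the tests through arrays of 24 h alone. The Hoxb7 call was also lost with an offset of 1 unit, without the mean-variance trend and with robust fitting.

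Of the other genes with a higher signal at 24 h, 1452421_at of Hoxa3 changed by 0.51 ± 0.11 (limma adjusted p = 0.00689) and 1431392_at did not pass (0.08 ± 0.09). The Pbx2 set 1449261_at gave 147 to 196 units at 24 h and 118 to 148 at 3 h (0.32 ± 0.09, adjusted p = 0.0208), and its other sets differed by 0.17 and 0.05 without passing. The Pbx2 call was lost without the untreated v-erbA array of 24 h, the v-erbA RA array of 3 h, the AML12 RA array of 24 h or the untreated AML12 array of 3 h.

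Meis3, whose product is a further Hox cofactor of this family, fell at 24 h. Its signal at 24 h was 96.3 with RA and 99.5 untreated in the v-erbA line, and 79.4 with RA and 77.8 untreated in AML12. At 3 h it was 182.2 with RA and 181.9 untreated in the v-erbA line, and 192 with RA and 159 untreated in AML12. The times stood clearly apart, by 0.88 ± 0.08 (limma adjusted p = 2.72e-05). Meis1 by 1459423_at was at least 1.55-fold lower at 24 h, all 4 arrays of that time being below the level, so that it was tested through arrays of 3 h alone (limma adjusted p = 2.30e-05), but 1450992_a_at of the same gene differed by -0.03 ± 0.08. The probe sets of Meis1 thus did not give the same time course. Pbx3 fell by 0.48 ± 0.06 and 0.27 ± 0.06 with its 2 sets (limma adjusted p = 1.43e-04 and 0.00973, lower in 4 of 4 pairs). Meis2 by 1417129_a_at fell by 0.22 ± 0.06 (adjusted p = 0.0237), a call lost when any of 6 single arrays was left out, and its other 3 sets did not pass. Of these, 1457632_s_at passed with arrays centred on their median (-0.21, adjusted p = 0.0416). All 7 genes with several tested sets had 1 sign over them for time, in part through changes as small as -0.03. Only in 1 of them, Pbx3, did all sets pass.

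**Figure D4:**
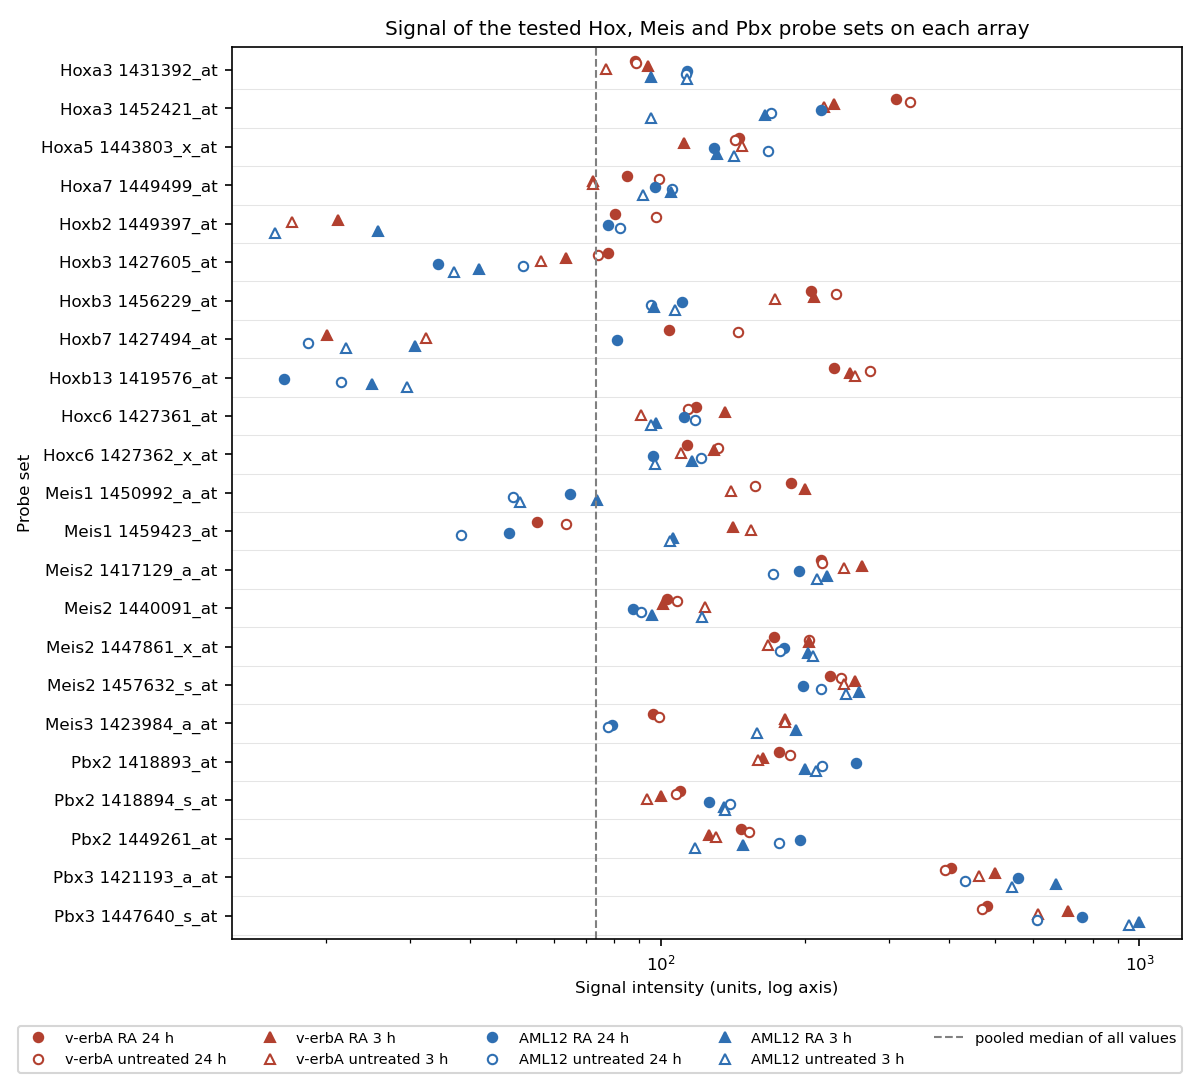
Signal in units (horizontal axis, log scale) of the 23 tested probe sets (vertical axis) on each array; red stands for the v-erbA line and blue for AML12, circles for 24 h and triangles for 3 h, filled symbols for RA and open symbols for untreated cells, and the dashed line is the pooled median of 73.5 units. Hoxb13 and 1450992_a_at of Meis1 are split by line, Hoxb2 and Meis3 by time, and in no probe set do all filled symbols lie apart from all open ones.

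Of the 40 members that were not tested, 4 exceeded 73.5 units on 1 array. They were both of Hoxc5's brighter sets (74.7 and 80.6 units at their highest), a Hoxb4 set (93.6) and a Meis1 set (85.6). Just inside the limit was 1427605_at of Hoxb3, with 77.8 and 73.9 units on its 2 brightest arrays. In 9 of the 40 the lines did not overlap, 6 higher and 3 lower in the v-erbA line, against 9.96% of the 20081 probe sets that were likewise not tested. Hoxc5 was lower in the v-erbA line with 1450832_at, 8.01 to 29.4 units against 54.6 to 74.7 in AML12, and with 1456301_at, 19.7 to 47.1 units against 60.7 to 80.6 in AML12. The remaining set, 1439885_at, overlapped. Hoxb4 by 1451761_at was higher, with 28.6 to 93.6 units against 13.3 to 21.9 in AML12, and by 1460379_at it overlapped. The other 6 were Hoxa4, Hoxa5, Hoxa13, Hoxc6 and Hoxd8 sets, higher in the v-erbA line, and a Hoxc4 set, lower there, all below 73.5 units. No fold is given at these levels.

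Between times, 4 of the 40 did not overlap, all lower at 24 h, against 10.8% of the probe sets not tested. Hoxb5 gave 2.63 to 7.31 units at 24 h and 47.2 to 61.7 at 3 h, and Pbx4 by 1454912_at gave 4.87 to 15.0 units at 24 h and 40.1 to 59.4 at 3 h. Hoxc9 gave 19.6 to 33.6 units at 24 h and 53.5 to 63.2 at 3 h, and Hoxb6 gave 8.17 to 15.0 at 24 h and 17.2 to 31.1 at 3 h. The 36 members dim on every array, from HoxA to HoxD and Pbx4, stayed at or below 70.8 units on every array.

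Genes that act with or on the Hox clusters were listed apart from the members. Polycomb genes, whose products keep Hox genes silent, had 7 higher and 1 lower of 15 tested with v-erbA (limma), with a median of 0.15 against 0.02 over all probe sets. Ezh2, the methyltransferase of the complex, rose by 0.80 ± 0.09, Suz12 by 0.39 ± 0.06, Bmi1 by 0.30 ± 0.05 and Phc3 by 0.25 ± 0.05. The 1 that fell was Rnf2, by 0.15 ± 0.04, which was singled out after its values were seen. Trithorax and MLL genes, which keep Hox genes active, had 3 higher and 3 lower of 14 (median 0.11), with Dot1l at 0.62, Kdm6b at 0.37 and Dpy30 at -0.28. Other TALE genes and Pbx partners had 4 higher and 1 lower of 8 (median 0.18). Pknox1, a Pbx partner, rose by 0.49 ± 0.07, Mkx by 0.44 ± 0.09 and Pbxip1, which encodes a Pbx-binding protein, by 0.36 ± 0.06, and Irx5 fell by 0.54 ± 0.08. These counts stand against the same 49.7% of all probe sets, 25.4% higher and 24.3% lower. The lists used 1 probe set per gene, that with the highest mean, so the units are unlike.

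RA moved 0 genes past the threshold in these 3 lists. Over time Polycomb genes had 4 higher and 2 lower, among them Cbx8 at -0.61 and Ezh1 at 0.50. Pcgf2 was at least 2.05-fold lower at 24 h, with 41.7 to 64.5 units at 24 h and 120.3 to 201 at 3 h, and was tested only through the arrays of 3 h, where it was high. Trithorax and MLL genes had 2 higher and 3 lower, and the TALE list 2 higher and 0 lower. Of all probe sets 30.4% passed for time (16.6% higher and 13.8% lower), again a share of unlike units. Of the Cdx, ParaHox, Evx and upstream regulator list 10 of 12 genes were on the array and only Evx2, a neighbour of HoxD, was tested; it rose at 24 h by 0.32 ± 0.09 (limma adjusted p = 0.0255) and did not pass for v-erbA or RA.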

How the data were processed

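RNA of 8 samples was measured on 1-colour Affymetrix arrays. For every array the deposited table lists signal intensities, linear and 1 for each probe set. How the authors summarized and scaled them is not stated in the labels used here. Array medians were 71.2 to 76.1 units, and the deposited scaling was kept. Of 45037 probe sets 1 lacked values on 4 arrays and was left out. Platform annotation named 1 gene for 34944 probe sets, several for 932 and none for 9160; all 63 members were found in RefSeq's GRCm38.p6 gene table, with 0 symbols changed.

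Line, treatment and time came from the sample titles. Intensities were transformed to log2(signal + 19.9), the offset being the 20th percentile of all values. Probe sets with at least 2 of 8 arrays above the pooled median were fitted with limma 3.58.1 (R 4.3.3, mean-variance trend, Benjamini-Hochberg over all 24955) in a model with additive terms for line, treatment and time and 4 residual degrees of freedom, or with 1 interaction term and 3. The unit was the probe set. Where all arrays of the lower group were dim, the fold is a bound against the pooled median. The code was tested on simulated data. Every member with at least 2 bright arrays is named; from the other lists at most the 4 with the largest changes per comparison, and Rnf2 besides. Per gene of those lists the probe set with the highest mean was used. Members and lists were chosen with earlier results of these data known. Alternatives changed offset, filter, scaling, unit, empirical Bayes step, model and arrays. The number of arrays limits the precision.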

Additional observations from a re-analysis of the deposited data

How the results depend on the processing

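The number of members past the threshold for v-erbA was 12 as reported, 19 of 63 with no dim filter, 6 genes with 1 probe set per gene, 7 with no time term and 7 with the arrays of 24 h alone; leaving out single arrays gave 11 to 12. For time it was 9, 5 genes with 1 probe set per gene and 6 to 8 with single arrays left out. For RA it was 0, and 1 (1450992_a_at of Meis1) with all 2-way interactions and with the arrays of 3 h alone. Each of these fits left 1 residual degree of freedom. For RA in AML12 it was 0, and 0 to 1 with single arrays left out, Hoxb7 passing without the untreated AML12 array of 3 h. For the difference of v-erbA effects between times it was 0, and 0 to 1, Hoxb7 passing without the AML12 RA array of 24 h. RA in the v-erbA line and the difference between lines kept 0 throughout. Calls for v-erbA of Hoxb13, both Hoxb3 sets, 1452421_at of Hoxa3 and 1450992_a_at of Meis1 held in each alternative in which they were tested, and no called member changed sign. Of these, Hoxb13, 1427605_at of Hoxb3 and 1450992_a_at of Meis1 had entered the tests through the v-erbA arrays, where they were high.

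Over all probe sets the count for v-erbA was 12403, against 6421 with 1 probe set per gene and 7943 with no time term. For RA it was 286, against 141 with 1 probe set per gene, 25 without the trend, 1481 with all 2-way interactions, 1204 at 3 h, 0 with no time term, and 62 to 286 with single arrays left out. For time it was 7580, against 4164 with 1 probe set per gene. For RA in AML12 it was 77, against 141 with all 8 arrays bright, 127 with centred arrays, 119 with robust fitting, 37 with 1 probe set per gene, 0 without the trend, and 1 to 330 with single arrays left out. For RA in the v-erbA line it was 0, and up to 9 with centred arrays. For the difference between lines it was 0, and 8 without the AML12 RA array of 3 h. For the difference between times it was 28, and 0 (all 8 arrays bright) to 311 (without the AML12 RA array of 24 h). With centred arrays 71.3% of RA calls were higher, against 58.4%, 43.7% of time calls, against 54.6%, and 44.7% of v-erbA calls, against 51.2%. With the matched pairs as a block, chosen after seeing the data, 12 members passed for v-erbA, 0 for RA and 9 for time; no call of a member changed. The causes were not tested.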

Other observations

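Antisense transcripts of the Hox clusters were read by 5 probe sets outside the member rule. Hoxb5os gave 87.3 with RA and 90.9 untreated in the v-erbA line at 24 h, and 71.3 with RA and 88.1 untreated in AML12 at 24 h. At 3 h it gave 65.7 and 65.0 units in the v-erbA line and 70.1 and 57.0 in AML12, in the same order, so that all arrays of 24 h lay above those of 3 h, whereas Hoxb5 itself was lower at 24 h with both times below the pooled median. Hoxa11os by 1452400_a_at exceeded that level on 1 array, at 76.5 units, and the sets of Hoxd3os1 did not exceed 22.7 units. A probe set annotated to both Hoxb7 and Hoxb8, which names neither gene, gave 15.1 to 23.4 units at 24 h and 51.9 to 69.6 units at 3 h, the other direction from the Hoxb7 set described above.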
